A study of Ovis aries with 9 samples.

Results

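The enzymes and binding proteins of DNA methylation were examined in the hypothalamus of Dolang ewes across the onset of puberty. The set held 9 genes, grouped by role into writers (DNMT1, DNMT3A, DNMT3B), erasers (TET1, TET2, TET3) and readers (MBD2, MBD3, UHRF1), out of 21284 genes in the expression table. Each gene was found by its RefSeq symbol, and its level was the sum of the FPKM (fragment counts scaled to transcript length and library size) of its mRNA transcripts, 46 of the 115108 rows of the table. The rule used gene symbols alone.

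RNA sequencing of 9 frozen tissue samples labelled as hypothalamus gave 1 library per ewe, with 3 ewes at each of 3 stages. Prepuberty ewes were 120 days old, calm and did not accept the ram, puberty ewes were 130 days old and in their first observed estrus, and postpuberty ewes were 150 days old. All were untreated females of the same breed kept at 1 station, so stage and age cannot be told apart. Libraries are named by stage and replicate number, such as Puberty 2.

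DNA methylation is the addition of a methyl group to cytosine, mostly where a cytosine precedes a guanine. DNMT3A and DNMT3B place new marks and DNMT1, guided to newly copied DNA by UHRF1, keeps them through cell division. The TET enzymes oxidise methylcytosine, which opens the way to its removal, and proteins with a methyl-CpG binding domain carry the mark to repressive complexes. In the brain, DNMT1 and DNMT3A remain expressed in neurons that no longer divide, and hydroxymethylcytosine, the first product of the TET enzymes, is abundant there. The libraries measured transcripts of these genes. The methylation of DNA was not measured.

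Puberty 2 stood apart from the other 8 libraries, and the levels and stage comparisons of the 9 genes are given with and without it. Its deposited FPKM summed to 599726 over all rows, against 359588 to 398109 in the others, and 42441 of its rows were above 0, against 67824 to 71787. Spearman correlations across genes were 0.826 to 0.847 between Puberty 2 and the others and 0.931 to 0.973 among the others. The study states the number of clean reads per stage, but the table used here holds no read counts per gene, so no counting error is given for single values. The marker genes of the labelled tissue were checked as well. Of 12 hypothalamic markers, SIM1, NKX2-1, AGRP, GAL and PMCH were at or below 0.699 FPKM in every library, and HCRT was at or below 1.68. The others reached higher values. Over the 9 libraries, SST had 4.27 to 107 FPKM, TRH 0.824 to 36.8, NPY 0.222 to 22.7 and POMC 2.09 to 22.45. AVP had 0.551 to 10.4 FPKM and OXT 0.319 to 4.81. The summed level of the 12 markers lay between 29.2 and 164 FPKM, and SST had the highest mean of them at 41.9 FPKM. Of the 7 tested, 5 had higher fitted levels in puberty than in prepuberty, with a median log2 fold change of -0.28 (prepuberty minus puberty). None was called in limma. Markers of the choroid plexus summed to between 9.71 and 7652 FPKM and those of the pituitary to between 0.125 and 216 over the 8 libraries. The choroid plexus sums were 342, 9.71 and 32.9 FPKM in prepuberty, 257, 556 and 7652 FPKM in puberty and 54.2, 37.2 and 732 FPKM in postpuberty, so the stages overlapped and Puberty 3 was far above the rest. All 5 choroid plexus markers tested had higher fitted levels in puberty than in prepuberty, with a median log2 fold change of -1.02 (prepuberty minus puberty), and -1.71 without Puberty 2, and none was called in limma. Of these, KL and CLIC6 passed the filter through puberty alone and so had to be higher there. All 4 pituitary markers tested were also higher in puberty than in prepuberty, with a median of -0.64, and 3 of 4 were so without Puberty 2, with a median of -0.68. Between prepuberty and postpuberty the pituitary median was -1.36, with 3 of 4 higher in postpuberty, and none was called in limma. CGA among them passed the filter through postpuberty alone. Several of the 12 listed hypothalamic markers were thus near 0, whereas others such as SST, TRH and POMC were not. POMC had 12.8, 17.4 and 10.7 FPKM in Puberty 3, Postpuberty 1 and Postpuberty 2. The pituitary marker PRL had 77.8, 199.5 and 74.4 FPKM there. In the other libraries except Puberty 2, POMC had 2.09 to 4.37 FPKM and PRL 0.0562 to 25.6 FPKM. Puberty 2 had 22.45 FPKM of POMC and 2.655 FPKM of PRL. The tissue from which POMC came was not tested. Markers of neighbouring tissues were high in some libraries, and whether the samples held hypothalamus alone was not tested. In bulk tissue, fewer cells of a type and less RNA per cell cannot be told apart.

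Over the 8 libraries without Puberty 2, the 9 genes fell in a wide order of levels. MBD3 was the highest with 13.9 ± 0.816 FPKM (mean ± SD, n = 8), above DNMT1 in all 8 libraries. DNMT1 followed with 9.94 ± 0.887 FPKM and DNMT3A with 5.33 ± 0.794 FPKM, and DNMT1 was above DNMT3A in all 8. TET2 had 3.51 ± 1.28 FPKM and was below DNMT3A in 7 of 8 libraries. UHRF1 with 2.14 ± 0.923 FPKM, TET3 with 1.93 ± 0.457 FPKM and MBD2 with 1.92 ± 0.591 FPKM did not differ beyond their spread, UHRF1 being above TET3 in 4 of 8 libraries. TET1 with 0.988 ± 0.349 FPKM was below MBD2 in all 8 libraries and above DNMT3B in all 8. DNMT3B was the lowest at 0.518 ± 0.0971 FPKM. Among all genes of the table, these means put MBD3 at the 84.9th percentile, DNMT1 at the 79.8th, and DNMT3B at the 35.9th. With Puberty 2 included, MBD2 moved from the seventh place to the fifth and the other genes kept their order relative to one another. The order depended on summing transcripts. When each gene was read from its highest transcript alone, DNMT3A moved from the third place to the seventh at 1.15 FPKM over the 8 libraries, and MBD3 at 9.80 FPKM was above DNMT1 at 8.98 FPKM in 5 of 8.

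**Figure D1:**
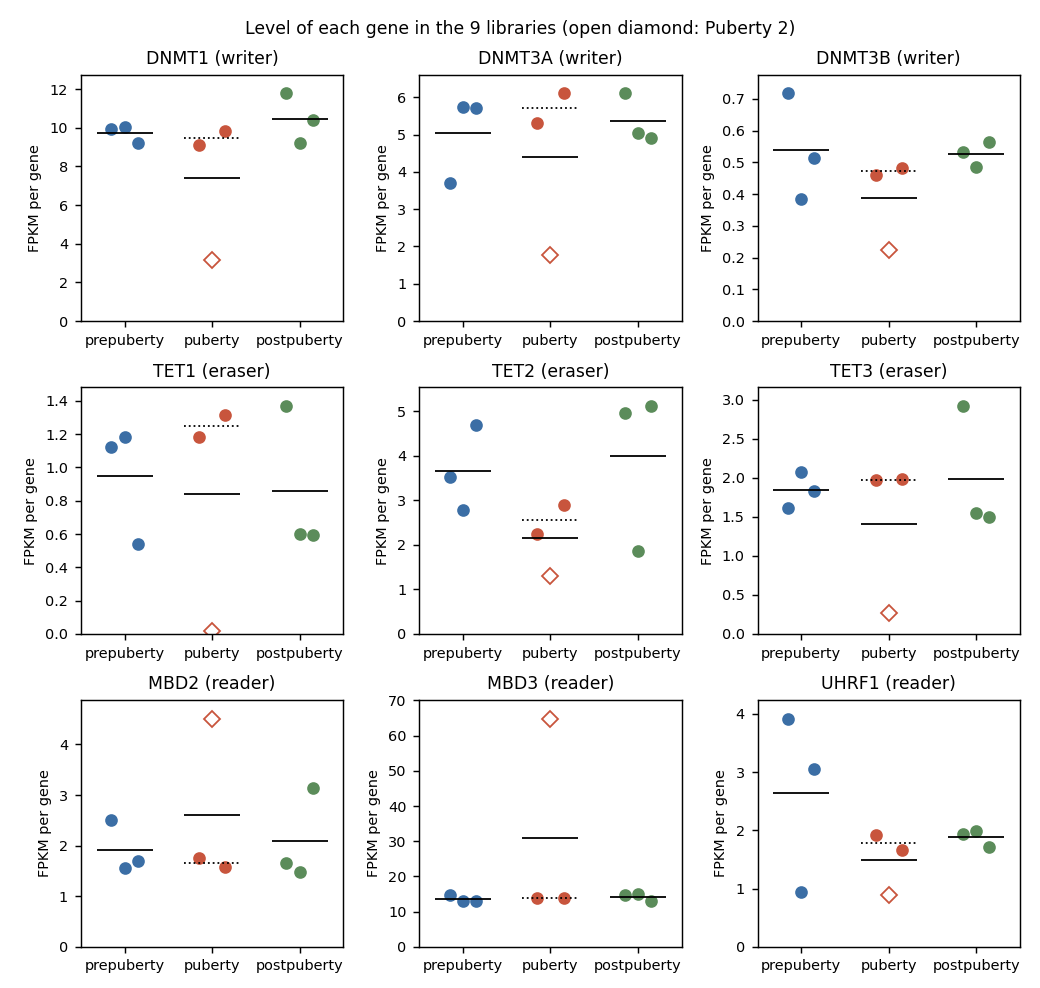
FPKM per gene (y axis) by stage (x axis) for the 9 genes, 1 point per library, with the mean of each stage as a solid line and the mean of puberty without Puberty 2 as a dotted line. Puberty 2, the open diamond, lies below the other 8 libraries for 7 genes and above them for MBD2 and MBD3, where MBD3 reached 64.9 FPKM against 13.0 to 15.0.

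Among the writers, DNMT1, the maintenance methyltransferase (Gene ID 443549, chromosome 5, 12542273 to 12585831 in ARS-UI_Ramb_v3.0), was close to constant outside Puberty 2. It had 9.96, 10.0 and 9.19 FPKM in the prepuberty libraries, 9.12, 3.18 and 9.84 FPKM in the puberty libraries and 11.8, 9.19 and 10.4 FPKM in the postpuberty libraries. Postpuberty 1 was the highest, and the stages overlapped. Its coefficient of variation over the 8 libraries was 8.92%, against a median of 19.7% for the 2827 genes within 1.5-fold of its level.

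DNMT3A, a de novo methyltransferase (Gene ID 100500776, chromosome 3, 32654838 to 32759345), had 3.71, 5.73 and 5.70 FPKM in prepuberty, 5.31, 1.77 and 6.12 FPKM in puberty and 6.12, 5.06 and 4.92 FPKM in postpuberty. Prepuberty 1 was the lowest of the 8 libraries for this gene. The table also held 4 noncoding transcripts of DNMT3A that were left out of its level. They took 10.3% to 37.1% of the FPKM of both kinds in the 8 libraries, with the largest shares in Prepuberty 1 (37.1%) and Postpuberty 1 (36.6%), and 48.0% in Puberty 2. When they were added, Prepuberty 1 had 5.90 FPKM and no longer was the lowest library, whereas Postpuberty 1 rose to 9.66 FPKM. A long noncoding RNA gene overlaps the DNMT3A locus.

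DNMT3B, the other de novo enzyme (Gene ID 106990108, chromosome 13, 61802663 to 61836994), was near the filter of 0.5 FPKM. It had 0.719, 0.385 and 0.514 FPKM in prepuberty, 0.460, 0.223 and 0.483 FPKM in puberty and 0.532, 0.487 and 0.565 FPKM in postpuberty. The puberty libraries were all below the postpuberty libraries, although Puberty 3 and Postpuberty 2 were only 0.483 and 0.487 FPKM. The prepuberty libraries spanned both.

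DNMT1 made up 59.7% to 69.2% of the summed writer FPKM in the 8 libraries, DNMT3A 25.8% to 37.2% and DNMT3B 2.39% to 4.997%. Puberty 2 had a writer sum of 5.18 FPKM against 14.4 to 18.5 FPKM in the others. Its shares of 61.4%, 34.3% and 4.30% for the 3 enzymes nevertheless lay within the ranges of the other 8 libraries.

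Over the 8 libraries without Puberty 2, the coefficients of variation of the erasers were 35.3% for TET1, 36.3% for TET2 and 23.7% for TET3, above the 8.92% of DNMT1 and the 14.9% of DNMT3A. Genes of like level had medians of 44.8% for TET1 and 32.6% for TET3, so both lay below those medians. TET2 (Gene ID 101104996, chromosome 6, 20279562 to 20414988), a dioxygenase without a CXXC DNA-binding domain of its own, was the most abundant. It had 3.53, 2.78 and 4.70 FPKM in prepuberty, 2.24, 1.30 and 2.90 FPKM in puberty and 4.97, 1.87 and 5.13 FPKM in postpuberty. The puberty libraries were low, but Postpuberty 2 was lower than Puberty 1 and Puberty 3, and Prepuberty 2 was lower than Puberty 3. Its coefficient of variation was above the median of 25.7% for 3183 genes of like level.

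TET3 (Gene ID 101105649, chromosome 3, 95802310 to 95914055), the TET enzyme of the zygote and of neurons, had 1.62, 2.07 and 1.83 FPKM in prepuberty, 1.98, 0.266 and 1.98 FPKM in puberty and 2.92, 1.55 and 1.49 FPKM in postpuberty. Postpuberty 1 was the highest. TET1 (Gene ID 101103534, chromosome 25, 24134195 to 24274120), the TET enzyme of embryonic stem cells, had 1.12, 1.18 and 0.537 FPKM in prepuberty, 1.18, 0.0195 and 1.32 FPKM in puberty and 1.37, 0.602 and 0.595 FPKM in postpuberty. Apart from Puberty 2, its libraries lay either between 0.537 and 0.602 FPKM or between 1.12 and 1.37 FPKM, and both prepuberty and postpuberty had libraries in each range. Long noncoding RNA genes overlap the loci of both TET1 and TET3, and the locus of TET1 also holds a snoRNA gene and pseudogenes, so some of their reads may not be separable.

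TET2 took 41.5% to 71.1% of the summed eraser FPKM in the 8 libraries, TET3 20.7% to 38.5% and TET1 7.61% to 21.9%. The share of TET2 was largest in Postpuberty 3 (71.1%) and Prepuberty 3 (66.5%), the libraries in which TET1 took 8.25% and 7.61%. In Puberty 2, TET2 took 82.0% and TET1 1.23%, outside the ranges of the others. Writers exceeded erasers in summed FPKM by 1.99 to 3.66 times in the 8 libraries and by 3.26 times in Puberty 2.

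Among the readers, MBD3 (Gene ID 101119469, chromosome 5, 41631495 to 41640259) is a subunit of the NuRD remodelling and deacetylase complex that binds methylated DNA weakly. By its summed level over the 8 libraries without Puberty 2, it was the steadiest gene of the set. It had 14.8, 13.1 and 13.1 FPKM in prepuberty, 13.7, 64.9 and 13.9 FPKM in puberty and 14.6, 15.0 and 13.0 FPKM in postpuberty. Without Puberty 2 its coefficient of variation was 5.87%, below that of all but 1.46% of the 2397 genes of like level. With all 9 libraries it was 86.85%, the largest of the set. By the highest transcript alone, the value of MBD3 over the 8 libraries was 19.7%, above the 12.4% of DNMT1. By its summed level, MBD3 in Puberty 2 was at 4.66 times the mean of the other 8.

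MBD2 (Gene ID 494443, chromosome 23, 53917916 to 53985536), the NuRD subunit that does bind methylated CpG sites, had 2.504, 1.56 and 1.70 FPKM in prepuberty, 1.75, 4.51 and 1.57 FPKM in puberty and 1.65, 1.47 and 3.15 FPKM in postpuberty. Prepuberty 1 and Postpuberty 3 were above the other 6 libraries when Puberty 2 was set aside. MBD3 exceeded MBD2 by 4.14 to 10.2 times in the 8 libraries and by 14.4 times in Puberty 2.

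UHRF1 (Gene ID 101113067, chromosome 5, 17039306 to 17074863), which recognises hemimethylated DNA and brings DNMT1 to it, had 3.92, 0.945 and 3.06 FPKM in prepuberty, 1.92, 0.889 and 1.66 FPKM in puberty and 1.93, 1.99 and 1.72 FPKM in postpuberty. The prepuberty libraries held both the highest values of the gene and, outside Puberty 2, the lowest. Its coefficient of variation of 43.1% over the 8 libraries was the largest of the 9 genes, against a median of 31.0% for genes of like level. DNMT1 exceeded UHRF1 by 2.54 to 10.6 times over the 8 libraries. The UHRF1 locus overlaps the protein-coding gene ARRDC5, and strand was not given for the counting.

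Puberty 2 was below all other libraries for DNMT1, DNMT3A, DNMT3B, TET1, TET2, TET3 and UHRF1, which is 7 of 9 genes, and above them for MBD2 and MBD3. Of all 14238 genes tested, 51.9% were below and 20.2% above the other libraries in Puberty 2, so the 9 genes were not alone in this. The gap was widest for TET1, where the mean of the other 8 was 50.6 times its level, followed by TET3 with 7.27 times, DNMT1 with 3.12 times and DNMT3A with 3.01 times. When every library was scaled to the same total over protein-coding genes, 7 genes were still below and MBD3 was still above at 3.03 times the mean of the others. MBD2 then lay within their range. On that scale 65% of all genes tested were below and 12% above.

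**Figure D2:**
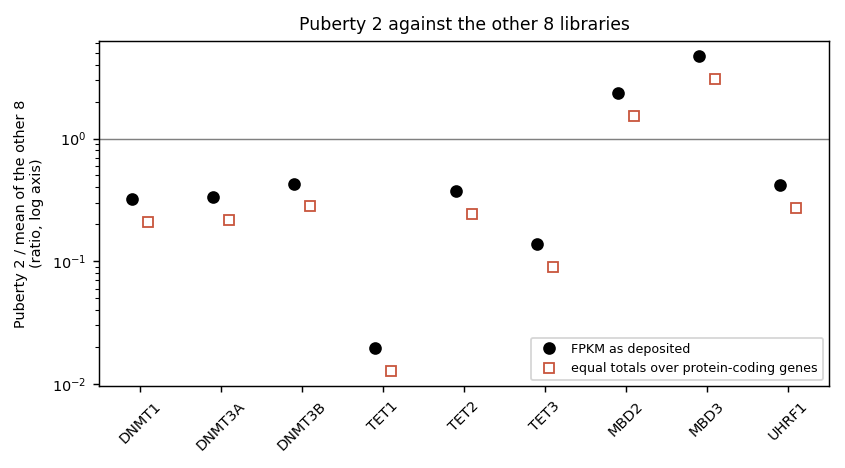
Ratio of Puberty 2 to the mean of the other 8 libraries (y axis, log scale) for each of the 9 genes, with FPKM as deposited (filled circles) and after scaling to equal totals (open squares). MBD2 and MBD3 lie above 1 on both scales and the other 7 genes below it, with TET1 lowest at 0.0197 as deposited.

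The first comparison asked which genes differed between prepuberty and puberty. None of the 9 genes passed an adjusted p of 0.05 with a log2 fold change of at least 1 (limma on log2(FPKM + 1), Benjamini-Hochberg adjustment). All 9 were above the filter, a mean of 0.5 FPKM in at least 1 stage. Across all 14238 genes tested, 0 passed (0% called), and 259 had an unadjusted p below 0.05. The log2 fold change, prepuberty minus puberty, was 0.58 (SE 0.37) for TET2, with the smallest p of the 9 genes at 0.149 and an adjusted p of 0.838 in limma. It was 0.48 (SE 0.36) for DNMT1 and -0.73 (SE 0.52) for MBD3. The median over all genes was 0.14, and -0.02 without Puberty 2.

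Without Puberty 2, the same comparison gave 0.37 (SE 0.36) for TET2, 0.03 (SE 0.15) for DNMT1 and -0.02 (SE 0.14) for MBD3. The 95% confidence intervals ran from -0.33 to 0.40 for DNMT1 and from -0.35 to 0.31 for MBD3, so that a log2 difference of 1 lay outside both. The interval for TET2, from -0.48 to 1.22, included it. The fold changes of DNMT3A, TET1, TET3 and MBD2 turned from 0.26, 0.16, 0.34 and -0.23 with Puberty 2 to -0.17, -0.22, -0.07 and 0.12 without it. Of the 14209 genes tested without Puberty 2, 0 passed (0% called), and 236 had an unadjusted p below 0.05 in limma.

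Complete separation of the libraries of both stages was counted as well. With all libraries, 0 of the 9 genes separated prepuberty from puberty, against 5.16% of all genes tested. Without Puberty 2, 1 of 9 did, against 11.7%. This was TET1, lower in prepuberty by the margin between 1.18 FPKM in Prepuberty 2 and 1.18 FPKM in Puberty 1, which differed only in the next digit. An exact permutation test of 1 gene cannot go below p = 0.1 with 3 libraries against 3 and p = 0.2 with 3 against 2.

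The second comparison set puberty against postpuberty. The log2 fold change, puberty minus postpuberty, was -0.62 (SE 0.37) for TET2, with a p of 0.128 and an adjusted p of 0.78 in limma, -0.57 (SE 0.36) for DNMT1 and 0.68 (SE 0.52) for MBD3. None of the 9 genes passed, and 0 of 14238 genes did (0% called), with 305 at an unadjusted p below 0.05. Without Puberty 2 the values were -0.41 (SE 0.36) for TET2, -0.12 (SE 0.15) for DNMT1 and -0.03 (SE 0.14) for MBD3, and 0 of 14209 genes passed (0% called), with 300 at an unadjusted p below 0.05 in limma. DNMT3B was the only one of the 9 genes to separate these stages, lower in puberty, against 7.32% of all genes with all libraries and 14.1% without Puberty 2. Its log2 fold change was -0.14 (SE 0.18) with Puberty 2 and -0.05 (SE 0.16) without.

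The third comparison, prepuberty against postpuberty, did not involve Puberty 2 except through the estimate of the spread. The log2 fold changes, prepuberty minus postpuberty, lay between -0.09 for DNMT1 and DNMT3A and 0.23 for UHRF1, and the adjusted p was 1 for all 9 genes in limma. With the spread estimated without Puberty 2, the 95% confidence intervals were -0.41 to 0.23 for DNMT1, -0.34 to 0.24 for MBD3 and -0.54 to 1.01 for UHRF1. None of the 9 genes separated these stages, against 4.57% of all genes. In limma, 0 of 14238 genes passed (0% called), with 116 at an unadjusted p below 0.05, and 0 of 14209 passed when the spread was estimated without Puberty 2 (0% called), with 265 at an unadjusted p below 0.05.

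**Figure D3:**
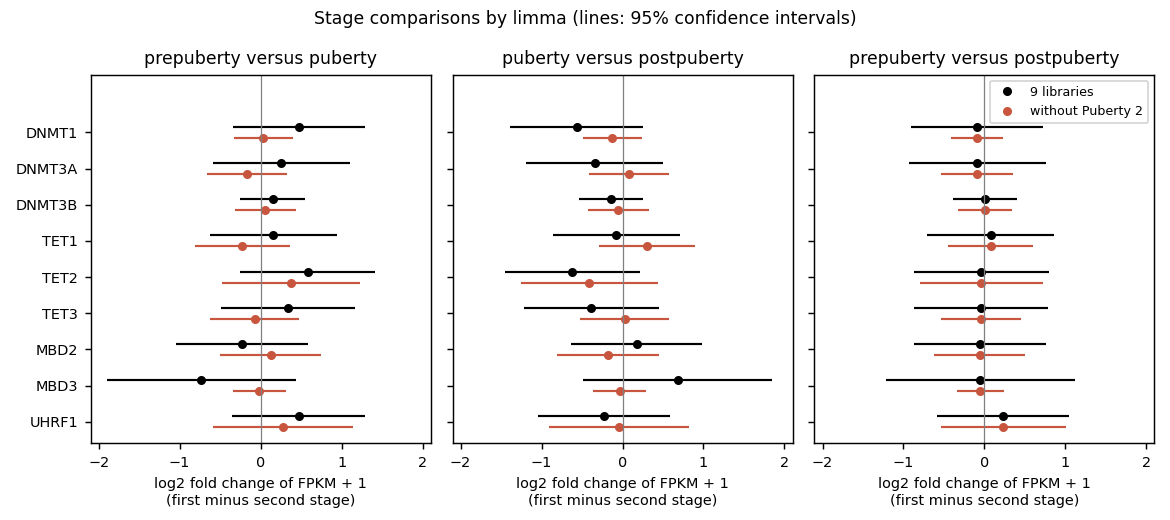
Log2 fold change of FPKM + 1 (x axis, first minus second stage) for the 9 genes in the 3 stage comparisons, with 95% confidence intervals from limma, using all 9 libraries (black) or leaving out Puberty 2 (red). Every interval crosses 0, and the intervals of DNMT1 and MBD3 narrow most when Puberty 2 is left out.

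The sums hid changes in which transcript model carried the reads. For DNMT1, NM_001009473.1 held 78.3% to 99.6% of the FPKM in 8 libraries and 0% in Puberty 2, where XM_042249411.2 held 100%. In the other libraries XM_042249411.2 held 0.101% to 0.390%. For TET2, XM_042251174.2 held 80.6% to 100% in 8 libraries and 0% in Puberty 2, where XM_042251176.2 held 100%. For TET3, XM_042248103.1 held 100% in Puberty 2 and at most 0.936% elsewhere. In DNMT3B, XM_042230028.2 was the main transcript with 35.4% to 69.3%, and Puberty 2 had 100% in XM_042230024.2. In TET1, XM_012105197.4 held 100% in Puberty 2 and led in 3 of 9 libraries in all. In DNMT3A, XM_027966564.3 led only in Puberty 2, with 44.8% against 6.91% to 25.6% in the others. UHRF1, also low in Puberty 2, was led there by the model that led most often over the 9 libraries. The level of the leading model in Puberty 2 was small for the other low genes, from 0.0195 FPKM for TET1 to 3.18 FPKM for DNMT1. MBD3, which was high in Puberty 2, changed its leading model too. XM_027970217.3 held 59.3% of it there, and XM_027970218.2 led in the other 8 libraries. The share of all genes whose leading model changed in Puberty 2 was not counted, so the change is not read as particular to these genes.

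TET3 also switched model among the other libraries. XM_027967015.2 held 95.9% and 96.8% in Prepuberty 2 and Prepuberty 3, 89.7% and 91.0% in Puberty 1 and Puberty 3, and 80.8% in Postpuberty 2. XM_042248101.2 held 87.1% in Prepuberty 1 and 60.1% in Postpuberty 1, and XM_015094461.3 held 100% in Postpuberty 3. The TET3 sum of Postpuberty 3, 1.49 FPKM, was still close to the 1.55 FPKM of Postpuberty 2. These 3 models are predictions of 1 gene, and short reads assign shared exons to them only by estimate.

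**Figure D4:**
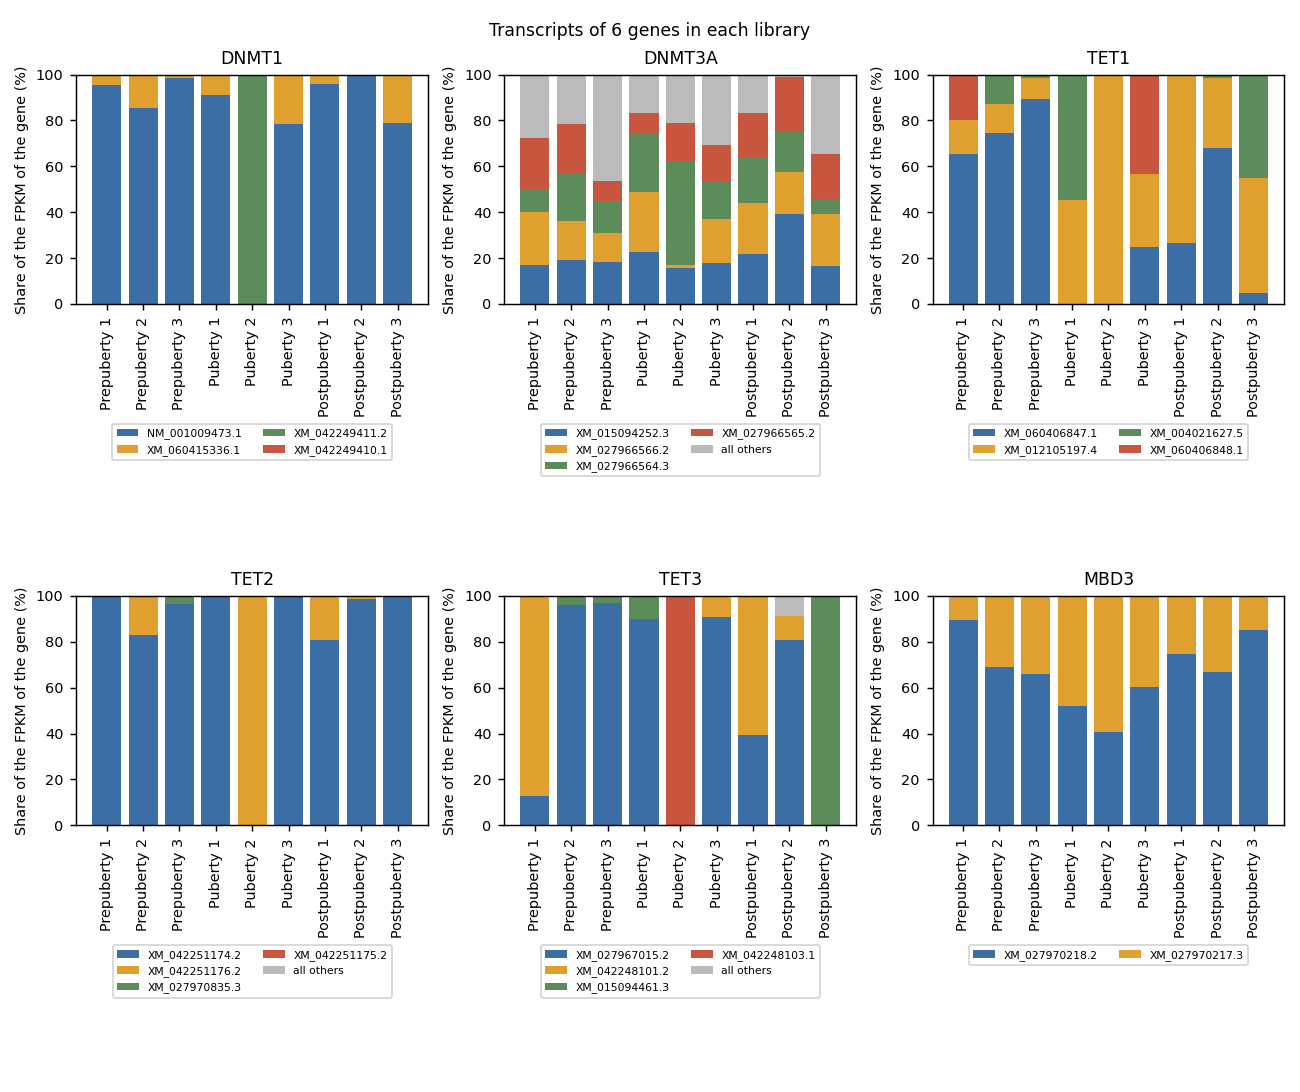
Share of the FPKM of each gene (y axis, percent) held by its transcripts in the 9 libraries (x axis) for 6 genes. Puberty 2 is filled by 1 otherwise minor transcript for DNMT1, TET2 and TET3, and the orange part of MBD3, XM_027970217.3, is larger in the 3 puberty libraries than in the other 6.

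The FPKM of MBD3 was divided between 2 transcripts. XM_027970217.3 had 1.58, 4.09 and 4.48 FPKM in prepuberty, 6.60, 38.5 and 5.55 FPKM in puberty and 3.72, 4.96 and 1.95 FPKM in postpuberty. All puberty libraries were above all others, with and without Puberty 2. Of all transcripts tested, 7.30% separated prepuberty from puberty and 8.48% puberty from postpuberty, and 15.7% and 16.9% did so without Puberty 2. Its share of MBD3 was 10.7%, 31.2% and 34.2% before puberty. The puberty libraries had shares of 48.0%, 59.3% and 39.9%, and the postpuberty libraries shares of 25.5%, 33.1% and 15.0%. The log2 fold change of this transcript was -1.59 (SE 0.67) between prepuberty and puberty, with a p of 0.0385 and an adjusted p of 0.831 in limma over 27674 transcripts. It was 1.52 (SE 0.67) between puberty and postpuberty, with a p of 0.0459 and an adjusted p of 0.781. Without Puberty 2 the values were -0.76 (SE 0.41), with a p of 0.103, and 0.69 (SE 0.41), with a p of 0.132, both at an adjusted p of 1 in limma. The other transcript, XM_027970218.2, ran from 7.14 to 13.3 FPKM in the 8 libraries, with its lowest values in Puberty 1 and Puberty 3, and reached its highest value in Puberty 2 at 26.4 FPKM, so that the stages overlapped. Without Puberty 2 this transcript separated puberty from both other stages, lower in puberty, with log2 fold changes of 0.35 (SE 0.23) for prepuberty minus puberty and -0.42 (SE 0.23) for puberty minus postpuberty, both at an adjusted p of 1 in limma. The shares themselves were not tested.

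In TET1, the main transcript was highest in the prepuberty libraries. XM_060406847.1 had 0.731, 0.878 and 0.479 FPKM in prepuberty, 0, 0 and 0.326 FPKM in puberty and 0.364, 0.409 and 0.0288 FPKM in postpuberty. All prepuberty libraries were above all others, and those of puberty and postpuberty overlapped. This transcript passed the filter of 0.5 FPKM through prepuberty alone, where its mean was 0.696 FPKM against 0.109 in puberty and 0.267 in postpuberty. It thus entered through the stage in which it was high, and its values are a description with no test. The second transcript, XM_012105197.4, held 9.20% to 15.0% of TET1 in prepuberty and 30.7% to 100% in all other libraries, so that the sum of the gene did not follow its main transcript.

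Of the 46 transcripts of the set, 17 passed the filter, and none passed the thresholds. NM_001009473.1 of DNMT1 was higher in all prepuberty than in all puberty libraries. Its log2 fold change was 1.22 (SE 0.73), and 0.16 (SE 0.20) without Puberty 2, where it was at 0. Without Puberty 2, XM_027966566.2 of DNMT3A separated too, lower in prepuberty than in puberty, at -0.30 (SE 0.23). XM_027967015.2 of TET3 was then higher in puberty than in postpuberty, at 0.72 (SE 0.50). Prepuberty and puberty separated in 7.30% of all transcripts tested, and in 15.7% without Puberty 2. Puberty and postpuberty did so in 16.9% without it. Some of the 17, that of TET1 among them, passed through 1 stage alone, so no count of separating transcripts is set against the share over all transcripts. Across all 27674 transcripts, 0 passed in limma in each comparison (0% called), with 858, 952 and 477 at an unadjusted p below 0.05 in the order of the comparisons above. Without Puberty 2, 0 of 27243 passed (0% called), with 912, 947 and 864 at an unadjusted p below 0.05.

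MBD2 had a single mRNA model, XM_015103759.3. UHRF1 was led by XM_027969834.3 with 56.0% to 100%, the rest being XM_027969835.2. DNMT3A was divided over 13 mRNA models above 0. XM_015094252.3 had the highest mean and held 16.4% to 39.3% in the 8 libraries and 15.8% in Puberty 2. XM_027966566.2 led in 4 libraries, XM_015094252.3 in 2, and XM_027966564.3, XM_027966565.2 and XM_042245882.1 in 1 each.

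The wider DNA methylation network was read from 7 lists with 69 genes, of which 61 passed the filter. None of the 61 passed the thresholds in limma in any comparison, with or without Puberty 2. The 9 other methyl-CpG readers summed to 48.8 to 58.6 FPKM in the 8 libraries and to 23.95 FPKM in Puberty 2. The 11 further NuRD subunits summed to 139 to 167 FPKM and to 76.5 FPKM in Puberty 2. Median log2 fold changes between prepuberty and puberty were 0.24 for the other readers and 0.34 for the NuRD subunits, against 0.14 for all genes, and -0.06 and 0.00 without Puberty 2, against -0.02. PCNA, the replication clamp that DNMT1 binds, had 9.02 to 14.7 FPKM in the 8 libraries and 7.38 FPKM in Puberty 2. TDG, the glycosylase that removes oxidised methylcytosine, had 2.68 to 4.21 FPKM in the 8 libraries and 0.735 FPKM in Puberty 2. DNMT3L, a cofactor of the de novo enzymes, was listed at 0 in 6 of 9 libraries and at most at 0.312 FPKM. Of 10 genes of dividing cells, 5 passed the filter. MKI67 had 0.0646 to 0.809 FPKM and TOP2A 0.046 to 0.870 FPKM over the 9 libraries, whereas TYMS had 0.5445 to 2.58 FPKM and the replication factors MCM2 and MCM3 2.075 to 3.93 FPKM and 3.255 to 6.88 FPKM.

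The 3 genes of these lists with the smallest p in each comparison of all libraries are given next. CXXC4, a CXXC protein that binds TET2, passed the filter through prepuberty alone, the stage with its highest mean, so its place among these genes is a description with no test. It had 0.904, 1.05 and 0.377 FPKM in prepuberty, 0.160, 0 and 0 FPKM in puberty and 0.126, 0.213 and 1.14 FPKM in postpuberty. MTR, methionine synthase, and MAT2B, a regulator of S-adenosylmethionine synthesis, followed with log2 fold changes of 0.83 (SE 0.49) and 0.67 (SE 0.41) between prepuberty and puberty, both at an adjusted p of 0.838 in limma. MTR had 3.37, 3.89 and 2.80 FPKM in prepuberty and 2.83, 0 and 2.78 FPKM in puberty, the 0 being Puberty 2. MAT2B had 13.0, 12.4 and 6.86 FPKM in prepuberty and 7.05, 3.33 and 9.47 FPKM in puberty. Both were lowest in Puberty 2, and neither was among the 3 genes with the smallest p without it. SHMT2, a mitochondrial enzyme of one-carbon supply, was at -0.53 (SE 0.30) between puberty and postpuberty, with an adjusted p of 0.78, and at -0.82 (SE 0.19) without Puberty 2, with a p of 0.00299 and an adjusted p of 1 in limma. It had 7.73, 5.87 and 6.86 FPKM in prepuberty, 5.48, 10.2 and 4.76 FPKM in puberty and 8.83, 9.004 and 11.8 FPKM in postpuberty. MTA2, a NuRD subunit, and NEIL2, a DNA glycosylase, came next at -0.74 (SE 0.44) and 0.75 (SE 0.45). MTA2 had 10.7, 3.06 and 14.1 FPKM in puberty and 15.25, 12.3 and 14.6 FPKM in postpuberty. NEIL2 had 17.7, 32.0 and 21.2 FPKM in puberty and 5.69, 17.8 and 21.7 FPKM in postpuberty. Puberty 2 held the lowest value of MTA2 and the highest of NEIL2. Neither was among the 3 genes with the smallest p without Puberty 2. AHCY, which clears the S-adenosylhomocysteine that methyltransferases leave, was at -0.87 (SE 0.32) between prepuberty and postpuberty, with a p of 0.0225 and an adjusted p of 1 in limma, followed by SHMT2 at -0.47 (SE 0.30) and the NuRD helicase CHD4 at -0.66 (SE 0.45). CHD4 had 1.73, 0.764 and 2.38 FPKM in prepuberty and 1.75, 1.965 and 6.80 FPKM in postpuberty, so its difference rested largely on Postpuberty 3. When Puberty 2 was left out, USP7, the deubiquitinase that stabilises DNMT1 and UHRF1, entered with 1.27 (SE 0.59) between puberty and postpuberty and an adjusted p of 1. With all libraries, USP7 was below 0 in this comparison, as were all 5 tested genes of its list. Leaving out Puberty 2 thus turned its sign. USP7 had 17.0, 7.55 and 17.8 FPKM in prepuberty, 21.0, 0.201 and 18.7 FPKM in puberty and 4.53, 18.7 and 4.92 FPKM in postpuberty. MBD5, from the other readers, entered as well between prepuberty and postpuberty, at -0.37 (SE 0.22) and an adjusted p of 1 in limma.

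The summed level of marker genes differed between the libraries and was set beside the 9 genes over the 8 libraries without Puberty 2. Microglia markers, 8 genes including CX3CR1 and CSF1R, summed to 98.9 to 482 FPKM, neuron markers to 427 to 1757 FPKM and endothelial markers to 89.2 to 170 FPKM. The microglia markers did not all follow their sum. In Postpuberty 3, which had the highest sum, C1QA, C1QB and C1QC had 41.3, 160.5 and 152.1 FPKM, each the highest of the 8. P2RY12 and TMEM119 had 6.85 and 12.9 FPKM there, against 21.3 and 19.0 FPKM in Prepuberty 1. Over 45 pairs of a gene and a cell type, 0 passed Benjamini-Hochberg adjustment of the exact permutation test, and 6 had an unadjusted p below 0.05. MBD2 and microglia markers had r = 0.90 on log2(FPKM + 1) (two-sided exact permutation p = 0.00414, adjusted p = 0.186), with a Spearman rho of 0.69 (exact p = 0.0694, adjusted p = 0.433). Without Postpuberty 3 and Prepuberty 1, the libraries with the highest microglia sums, r was 0.45, so the relation rested on those libraries. The same libraries stood apart in blood cell markers, which summed to 56.4 FPKM in Postpuberty 3 and 33.7 FPKM in Prepuberty 1 and to 5.31 to 10.6 FPKM in the other 6. The T cell gene CD3E had 16.8 and 8.499 FPKM there, and at most 2.102 FPKM in the other 6. The part of either cell type in the level of MBD2 was not tested. For TET2 and microglia markers, r was 0.72 (exact permutation p = 0.0466, adjusted p = 0.313), rho was 0.88 (exact p = 0.00724, adjusted p = 0.326) and r was 0.88 without the same 2 libraries. DNMT3B had r = 0.80 with endothelial markers (exact permutation p = 0.00932, adjusted p = 0.21), with rho of 0.81 (exact p = 0.0218, adjusted p = 0.433) and r of 0.61 without Prepuberty 1 and Prepuberty 2. It also had r = 0.80 with astrocyte markers (exact permutation p = 0.015, adjusted p = 0.226), with rho of 0.62 (exact p = 0.115, adjusted p = 0.47), and r = 0.76 with microglia markers (exact permutation p = 0.0241, adjusted p = 0.271), with rho of 0.76 (exact p = 0.0368, adjusted p = 0.433). Without the 2 libraries farthest from the median, these r were 0.81 and 0.38. UHRF1 had r = 0.70 with oligodendrocyte markers (exact permutation p = 0.0496, adjusted p = 0.313), with rho of 0.64 (exact p = 0.0962, adjusted p = 0.433) and r of 0.64 without Postpuberty 2 and Prepuberty 2. By stage, fitted marker levels ran as follows, as prepuberty minus puberty. Without Puberty 2, all 7 neuron markers tested were lower in prepuberty (median log2 fold change -0.28). With all libraries, 6 of 7 were higher (0.44). Without Puberty 2, 7 of 8 microglia markers (0.42) and all 6 endothelial markers (0.14) were higher in prepuberty, against -0.02 for all genes. Neuron sums were 625, 1479 and 1440 FPKM in prepuberty and 1435 and 1168 FPKM in Puberty 1 and Puberty 3. In the same order, microglia sums were 437, 149 and 193 against 132 and 195.5 FPKM. Endothelial sums were 170, 89.2 and 142 against 101.5 and 135.5 FPKM. Prepuberty 1 thus had the lowest neuron sum and the highest microglia and endothelial sums of these libraries. Astrocyte and oligodendrocyte markers went both ways, and none was called in limma. The part of these marker levels in the stage comparisons was not tested.

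**Figure D5:**
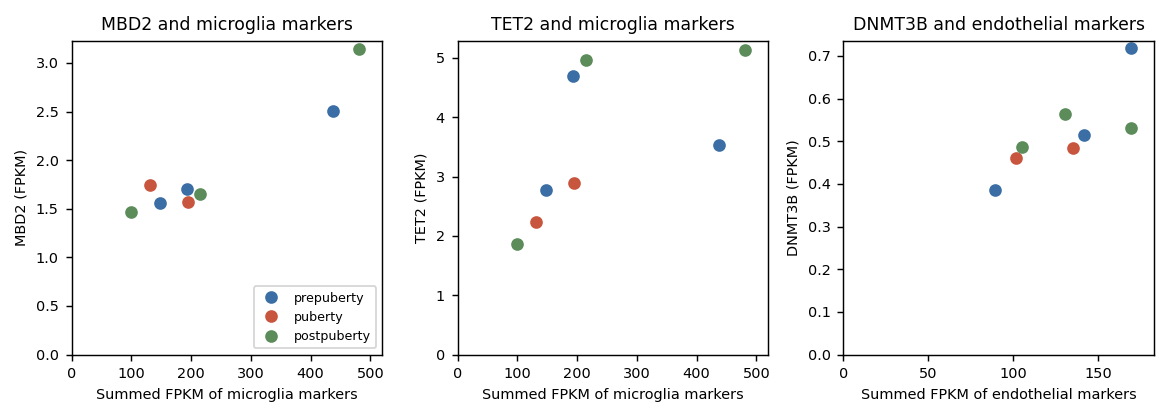
FPKM of MBD2, TET2 and DNMT3B (y axes) against the summed FPKM of microglia or endothelial markers (x axes), 1 point per library, coloured by stage, over the 8 libraries without Puberty 2. The 2 libraries with the highest microglia sums are also the highest for MBD2, at 2.504 and 3.15 FPKM, while TET2 spreads between 1.87 and 5.13 FPKM along the range.

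The genes nearest in pattern to the most abundant gene of each role were taken from 12321 genes with a mean of at least 1 FPKM, by Pearson r of log2(FPKM + 1) over the 8 libraries, as a description. FER (r = 0.97), NCOA2 (r = 0.96) and RSBN1L (r = 0.96) were nearest to DNMT1, and like it they had their highest value in Postpuberty 1, at 3.83, 6.995 and 3.27 FPKM. DPY19L4 (r = 0.95), GPSM2 (r = 0.95) and LOC101107920 (r = 0.92) were nearest to TET2, with the lowest value of each in Postpuberty 2. CRYBG3 (r = 0.96), CAV1 (r = 0.96) and SLC22A5 (r = 0.95) were nearest to MBD3. Among so many genes and 8 libraries, values this high can arise between unrelated genes.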

How the data were processed

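The deposited table was labelled as raw counts but held values with decimals, and it was read as FPKM per transcript for 9 libraries. The authors trimmed reads with Trimmomatic, for which the sources give different versions, aligned them with HISAT2 to the sheep assembly ARS-UI_Ramb_v3.0 and quantified transcripts with StringTie, and no read counts were part of the table used here, so a count test did not apply. Of the 76684 mRNA rows, 76682 were matched to a RefSeq gene symbol and summed per gene into 21284 genes. Gene positions are from RefSeq for ARS-UI_Ramb_v3.0. Genes and transcripts with a mean of at least 0.5 FPKM in 1 stage were tested with limma 3.58.1 in R 4.3.3 on log2(FPKM + 1), all stages in 1 fit with a mean-variance trend, and Benjamini-Hochberg adjustment over all features tested. A feature was called at an adjusted p below 0.05 and a log2 fold change of at least 1. Fold changes on this scale understate the change of genes near or below 1 FPKM. The script was tested on simulated data. Replicates were separate ewes.

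The genes, the lists of related genes and markers and the thresholds were chosen with earlier results of these data known. Named were all 9 genes, their main transcripts and those with at least 20% of a gene, the 3 genes of the wider lists with the smallest p per comparison and the 3 nearest genes by correlation. The transcripts of MBD3, TET1, DNMT1, DNMT3A and TET3 singled out for separating stages, and the listed genes PCNA, TDG, DNMT3L, MKI67, TOP2A, TYMS, MCM2, MCM3 and MBD5, were described after their values were seen. A gene of the wider lists is not reported here. Alternatives were another pseudocount, other filters and scalings, the highest transcript per gene, a robust variance, a replicate block and leaving out each library. Python 3.11.15, pandas 2.3.3 and scipy 1.17.1 were used for sums and correlations.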

Additional observations from a re-analysis of the deposited data

How the results depend on the processing

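No member gene passed the thresholds under any of 18 alternatives in which it was tested, and 36 of the 486 fold changes computed under them changed sign, 9 of them when Puberty 2 was left out. The cause of the sign changes was not tested. DNMT3B and TET1 had no stage mean that reached the alternative filter of 1 FPKM. By its highest transcript, DNMT3B had none that reached 0.5 FPKM. They could not be called there. Counts of called genes stayed at 0 in every comparison and alternative. Transcripts were refitted with each library left out, the replicate block, the other pseudocount and the other filters, and called transcripts stayed at 0 except for 1 between prepuberty and puberty without prepuberty replicate 1, so that count ranged from 0 to 1 when a library was left out. Log2 fold changes of members whose sign turned when 1 library was left out ranged as follows. Between prepuberty and puberty, DNMT3A ranged from -0.17 to 0.51, TET1 from -0.22 to 0.37, TET3 from -0.072 to 0.55 and MBD2 from -0.43 to 0.12. Between puberty and postpuberty, DNMT3A ranged from -0.60 to 0.08, TET1 from -0.29 to 0.30, TET3 from -0.59 to 0.028, MBD2 from -0.18 to 0.41 and MBD3 from -0.034 to 1.05. Between prepuberty and postpuberty, DNMT3A ranged from -0.17 to 0.083, DNMT3B from -0.077 to 0.079, TET1 from -0.019 to 0.27, TET2 from -0.40 to 0.15, TET3 from -0.16 to 0.17, MBD2 from -0.20 to 0.18 and UHRF1 from -0.035 to 0.64. Among members whose sign held, TET2 between puberty and postpuberty went from -0.62 to -0.98 without postpuberty replicate 2, with a p of 0.0229 and an adjusted p of 0.842 in limma. UHRF1 between prepuberty and puberty went from 0.47 to 0.87 without prepuberty replicate 2, with a p of 0.0192 and an adjusted p of 0.954 in limma. The same fold change of UHRF1 fell to 0.20 without prepuberty replicate 1 and to 0.28 without puberty replicate 2. Quantile scaling turned DNMT3B to -0.033 and TET1 to -0.005 between prepuberty and puberty, DNMT3B to 0.069, TET1 to 0.11 and UHRF1 to 0.07 between puberty and postpuberty, and TET2 and TET3 to 0.006 between prepuberty and postpuberty, where upper-quartile scaling gave 0.007 for TET2. A pseudocount of 0.1 gave -0.005 for DNMT3B between prepuberty and postpuberty. The highest transcript per gene gave -0.071 for DNMT3B and 0.35 for TET3 between prepuberty and postpuberty and 0.23 for TET3 between puberty and postpuberty. It also lowered the mean of DNMT3A to 1.05 FPKM, of DNMT3B to 0.265 FPKM and of TET1 to 0.357 FPKM, and over the 9 libraries that of MBD3 from 19.6 to 11.6 FPKM and of TET3 from 1.74 to 1.10 FPKM. With the replicate number as a block, 0 genes and 0 transcripts were called in each comparison, with 281, 327 and 103 genes at an unadjusted p below 0.05. Deviations from the stage means of libraries with the same number correlated between -0.32 and 0.52. Between prepuberty and postpuberty the values were 0.254, 0.515 and -0.083 for numbers 1, 2 and 3. Deviations within a stage depend on one another, so these values cannot decide whether the numbers pair the ewes. Without read counts per gene, no counting error is given for genes below 1 FPKM such as DNMT3B and TET1.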
